A study of Homo sapiens with 48 samples.

Results

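Transcripts of 7 multidrug transporters of the ATP-binding cassette (ABC) family were followed in RNA-seq counts from 8 human cancer cell lines given the proteasome inhibitor carfilzomib or DMSO. The 7 genes, ABCB1, ABCG2, ABCC1, ABCC2, ABCC3, ABCC4 and ABCC5, were found by their symbols in the count matrix. They fill 8 of its 33892 rows and are 7 of its 31037 gene identifiers, because ABCC1 has 2 rows, which were summed. By the labels' tumour type, RKO and DLD-1 derive from colon cancer, H-23 and H-1299 from lung cancer, PANC-1 and CAPAN-2 from pancreatic cancer, and H-929 and RPMI from multiple myeloma. In each line, 3 biological replicates were exposed to carfilzomib for 24 h and 3 to DMSO alone, which makes 16 groups and 48 libraries. The dose in each line was its own IC50 for proteasome activity, so it was matched on proteasome inhibition and not on concentration. The concentrations are not in the labels and are not used here. All lines were grown in standard culture, and the labels name no genotype, passage or subclone.

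ABC transporters use ATP to carry molecules across membranes, and the multidrug members carry drugs out of the cell. ABCB1 (P-glycoprotein) exports bulky hydrophobic drugs and is a known exporter of carfilzomib. ABCG2 (BCRP) exports a range of drugs and urate. The ABCC members (MRPs) export organic anions and conjugates of glutathione, glucuronate or sulphate, and ABCC4 and ABCC5 also export cyclic nucleotides and nucleotide analogues.

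Library totals ran from 9.12 to 64.4 M (mega) counts, with the lowest in H-929 after carfilzomib. All 6 plasma cell markers, among them TNFRSF17, IRF4 and CD38, were above 1 CPM (counts scaled to a library of 1 M, with TMM) in DMSO-treated H-929 and RPMI. In the other lines 3 or 4 of these 6 were above 1 CPM. Epithelial markers were incomplete in some carcinoma lines. KRT19 and CDH1 were under 1 CPM in RKO, and EPCAM, KRT19 and CDH1 were under 1 CPM in H-1299. The lung markers SFTPB and NAPSA were both under 1 CPM in H-1299. Of 4 intestinal markers RKO had 1 and DLD-1 had 2 above 1 CPM. RPMI also had 4 of 5 epithelial markers above 1 CPM, which summed to 196 to 205 CPM in DMSO and 186 to 216 CPM in carfilzomib. The summed plasma cell markers were lower after carfilzomib, at 3813 to 3877 CPM against 5981 to 6444 in H-929 and 949 to 1078 against 1654 to 1905 in RPMI. This was not particular to myeloma, as the same sum was lower without overlap in every other line. CAPAN-2 had 365 to 382 CPM against 479 to 535, and RKO 183 to 186 against 197 to 207. The part of these markers in the results for any line was not tested. A CPM is a share of a culture's RNA, so fewer cells with a transcript and less transcript per cell cannot be told apart.

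RefSeq promoter windows were matched by symbol for 5 of the 7 genes (10 windows: 5 for ABCG2, 2 for ABCB1, and 1 each for ABCC2, ABCC4 and ABCC5). The 250 bases before the start are printed for ABCC5, ABCC4 and a start of ABCB1, whose transcripts changed in the largest number of lines in 1 direction among genes with a window that holds a motif match. All are on the minus strand of GRCh38.p14 and read 5′ to 3′, and capitals mark motif matches. GENCODE release 29 annotates exons of the same gene over part of each window, so transcripts can also begin within it.
ABCB1, chr7:87600885-87601134: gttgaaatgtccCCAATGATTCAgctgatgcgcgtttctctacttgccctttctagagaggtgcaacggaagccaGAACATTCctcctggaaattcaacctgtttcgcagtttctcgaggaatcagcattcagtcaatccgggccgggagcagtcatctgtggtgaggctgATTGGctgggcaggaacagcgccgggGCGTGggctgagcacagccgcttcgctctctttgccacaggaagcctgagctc
ABCC4, chr13:95301452-95301701: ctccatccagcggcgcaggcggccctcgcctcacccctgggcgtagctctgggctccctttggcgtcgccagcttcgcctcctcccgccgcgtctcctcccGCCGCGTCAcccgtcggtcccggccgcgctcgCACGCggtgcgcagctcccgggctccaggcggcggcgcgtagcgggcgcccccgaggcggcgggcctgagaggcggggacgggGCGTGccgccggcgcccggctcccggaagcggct
ABCC5, chr3:184017885-184018134: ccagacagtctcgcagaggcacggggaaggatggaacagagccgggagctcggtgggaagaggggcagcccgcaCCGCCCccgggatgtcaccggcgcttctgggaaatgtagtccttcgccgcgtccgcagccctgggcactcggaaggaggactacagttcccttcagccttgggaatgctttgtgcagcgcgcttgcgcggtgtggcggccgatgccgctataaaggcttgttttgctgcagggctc

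Motifs were searched as exact letters on both strands. The ABCB1 window holds CCAAT 2 times, once running into an AP-1 match (TGANTCA) with which it shares a T. It also holds a heat shock element match (GAANNTTC) and an XRE match (GCGTG). The ABCC4 window, with 80.4% G and C, holds an ARE match (TGACNNNGC, read on the other strand) and 2 XRE matches. The ABCC5 window, with 64.8% G and C, holds a GC box (GGGCGG, read on the other strand). Among 35116 windows of this length, 32% held CCAAT, 6.57% AP-1, 5.78% the heat shock element, 32.2% XRE, 10.9% ARE and 42.6% the GC box. A CRE (TGACGTCA), in 1.65% of all windows, and an E box (CACGTG), in 6.34%, were not in these 3 windows. The other ABCB1 window, at the outer end of the gene, and the ABCC2 window matched none of these letters. Of the 5 ABCG2 windows, which are not printed, 3 held a match. A match describes letters in a window and says nothing of binding.

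Without drug the lines carried very different sets of these transcripts. Levels of different genes were compared as CPM per kilobase of annotated exon in the DMSO libraries (mean ± SD, n = 3). ABCC1 was left out here, because its rows carry an identifier that is not the one GENCODE gives the gene. ABCC4 led in 4 lines, at 23.8 ± 0.302 per kilobase in DLD-1, 22.6 ± 0.368 in PANC-1, 13.7 ± 1.11 in H-1299 and 8.25 ± 0.907 in RKO. ABCG2 led in RPMI at 24.7 ± 0.272 and in H-23 at 14.7 ± 0.563. ABCC3 led in CAPAN-2 at 49.8 ± 4.47, and ABCC5 led in H-929 at 4.46 ± 0.311.

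**Figure D1:**
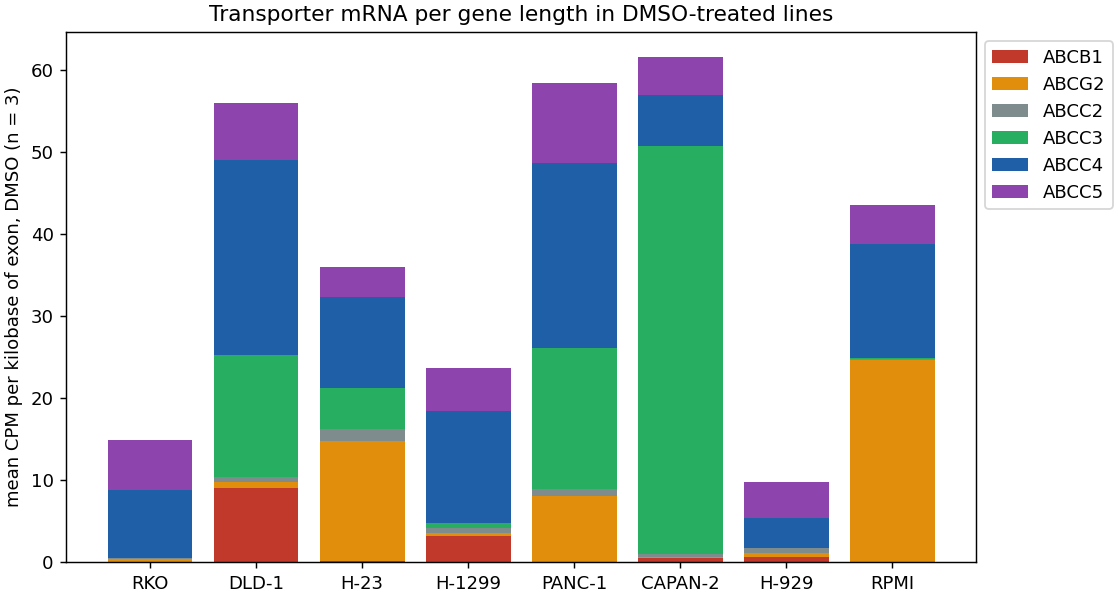
Stacked mean CPM per kilobase of exon (n = 3) of 6 transporters in DMSO-treated libraries of each line, with 1 colour per gene. The stack is highest in CAPAN-2, at 61.5, most of it ABCC3, and lowest in H-929, at 9.79.

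The sum of the 6 ranged from 9.79 per kilobase in H-929 to 61.5 in CAPAN-2. ABCC3 was 81.0% of that sum in CAPAN-2, and ABCG2 was 56.6% of it in RPMI. ABCB1 was 16% of the sum in DLD-1 and 13.1% in H-1299, and 5.98% or less in the other 6 lines.

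After carfilzomib, 20 of the 51 gene and line pairs that passed the filter on low counts were called higher and 10 lower (edgeR's quasi-likelihood test, Benjamini-Hochberg adjusted p under 0.05 over all genes of the line). The other 5 of the 56 pairs, with few or no counts, were not tested. Among the tested pairs, ABCB1 in RPMI passed the filter through its carfilzomib libraries only. In RKO, 0 of 5 tested members were called, where 8.91% of all genes were (3.62% higher, 5.29% lower). No member there had an unadjusted p under 0.05 with edgeR (0 of 5), and the Wald test of DESeq2 also called 0. In DLD-1, 6 of 7 were called higher, where 10.9% of all genes were called higher and 12.1% lower. In H-23, 4 of 7 were called higher, against 17.7% higher and 16.2% lower.

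H-1299 had 3 members called higher and 3 lower of 7, where 29.8% of all genes were higher and 31.3% lower. PANC-1 had 2 higher and 2 lower of 6, against 20.5% and 18.2%. CAPAN-2 had 1 higher and 2 lower of 7, against 25.7% and 26.8%. Members went both ways in the myeloma lines too. H-929 had 1 higher and 1 lower of 6, against 26.4% and 26.2%, and RPMI had 3 higher and 2 lower of 6, against 31.3% and 32.2%. The members called higher in RPMI include ABCB1, which passed the filter there through its carfilzomib libraries only. The RPMI count and share of members called therefore depend in part on that rise. In either direction, the share of members called was below that of all genes in RKO, CAPAN-2 (52.5%) and H-929 (52.6%). It was above it in DLD-1 (23%), H-23 (33.9%), H-1299 (61.2%), PANC-1 (38.7%) and RPMI (63.5%), with 5 to 7 members behind each share. With library totals as the scale, the share of calls over all genes that were higher went from 40.6% to 60.9% in RKO and from 47.5% to 60.3% in DLD-1. In H-1299 that scale moved the median of all genes by -0.11, and no called member changed sign under it.

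**Figure D2:**
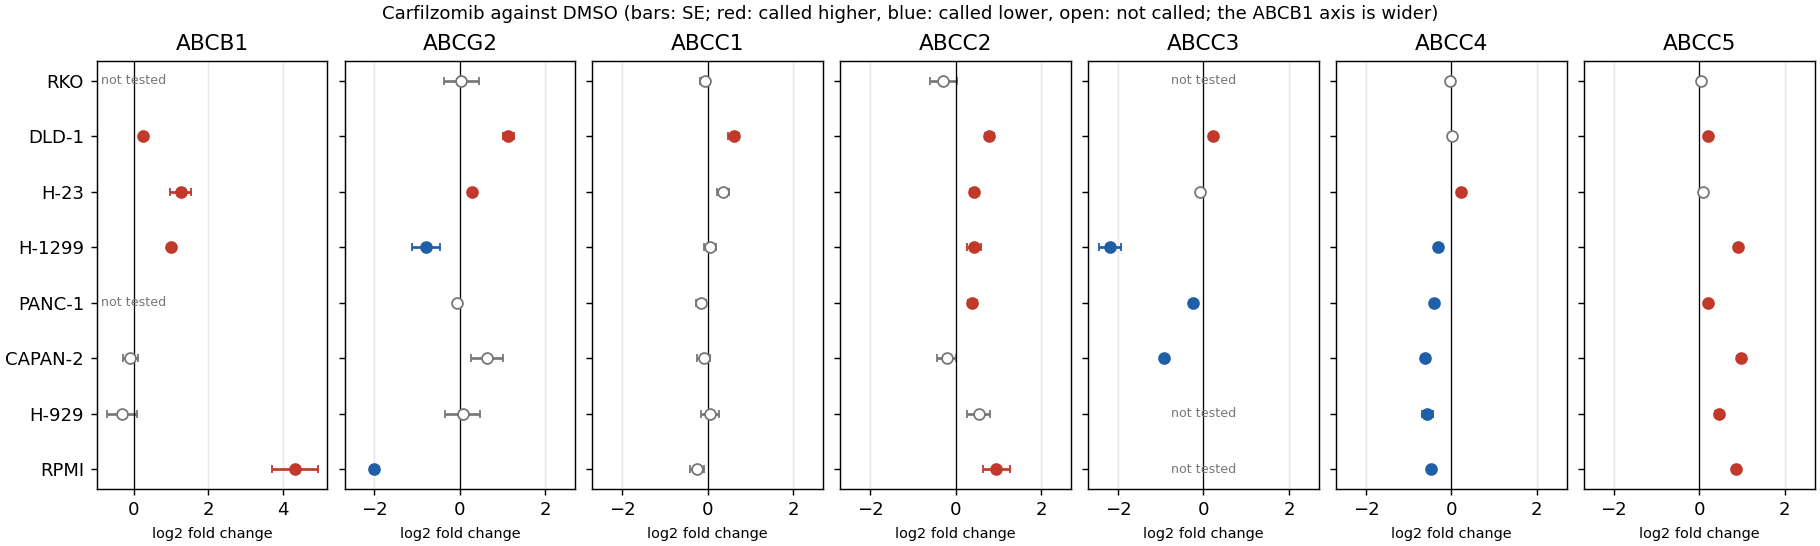
The log2 fold change of carfilzomib against DMSO (x axis) of each transporter in each line (y axis), with bars of 1 SE and 3 libraries a group. Filled red points were called higher, filled blue points lower, and open points were not called. ABCC5 points sit at or right of 0 in all 8 lines, and ABCG2 points lie on both sides, down to -2.01 in RPMI.

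ABCB1 (ENSG00000085563, chr7:87503633-87713323 of GENCODE 29, minus strand) ranged from abundant to undetected between lines. Its DMSO level was 52.1 ± 2.32 CPM in DLD-1 and 18 ± 1.33 in H-1299, followed by 3.40 ± 0.679 in H-929, 2.71 ± 0.246 in CAPAN-2, 0.685 ± 0.173 in H-23, 0.173 ± 0.0756 in PANC-1 and 0.0739 ± 0.0665 in RPMI (SD, n = 3, scaled over the DMSO libraries). RKO had no ABCB1 count in any of its 6 libraries, which allows up to 0.0611 CPM in DMSO and 0.0673 CPM in carfilzomib (3 counts over the group, counting error only). Neighbours in this order were called different except H-929 and CAPAN-2 (adjusted p = 0.134) and PANC-1 and RPMI (adjusted p = 0.0767). The call of RPMI above RKO (adjusted p = 0.0261) rests on 2, 0 and 3 counts against 0. The RKO limit of 0.0611 CPM lies inside the range of the RPMI libraries, 0 to 0.129 CPM, so that order is uncertain. Of the 28 pairs of lines, 26 were called different for ABCB1, RPMI and RKO among them. Over all genes and pairs, 72.6% of the tests differed, with 65.9% to 77.6% of 21115 genes in a single pair.

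ABCB1 was called higher after carfilzomib in 4 of the 6 lines tested, of which RPMI passed the filter on low counts through its carfilzomib libraries only. In H-1299, its DMSO libraries had 16.9, 18.3 and 15.7 CPM and the carfilzomib libraries 32.7, 33.7 and 34.5 CPM (scaled within the line). The groups were far apart, and the log2 fold change was 0.99 ± 0.075 (SE, adjusted p = 1.6e-07). In DLD-1, the line with most ABCB1, DMSO gave 56.5, 52.6 and 55 CPM and carfilzomib 64.6, 63.2 and 67.4 CPM. These groups did not overlap either, but the rise was small, at 0.25 ± 0.050 (adjusted p = 0.0053). It was not called in a single fit of all 48 libraries (0.24, adjusted p = 0.366). In H-23, with few counts, 0.878, 0.546 and 0.869 CPM in DMSO became 1.92, 2.37 and 1.32 CPM, a rise of 1.26 ± 0.28 (adjusted p = 0.0031).

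In RPMI, ABCB1 was nearly absent before the drug. Its counts were 2, 0 and 3 in DMSO and 26, 23 and 33 in carfilzomib, all higher after the drug. The fitted log2 fold change was 4.33 ± 0.61 (adjusted p = 2.8e-05), and the ratio of the summed counts, scaled for depth, was 21.8 (exact 95% interval 8.97 to 68.9, counting error only). The level after the drug was 1.08 to 1.47 CPM. Only the carfilzomib libraries carried ABCB1 past the filter on low counts in RPMI, so its being tested there depended on the rise. In CAPAN-2, 2.77, 2.30 and 2.59 CPM in DMSO stood beside 2.38, 2.77 and 2.01 CPM, and the groups overlapped (log2 fold change -0.10 ± 0.20, adjusted p = 0.717). In H-929, the groups also overlapped, with 3.77, 2.55 and 2.93 CPM in DMSO and 3.03, 3.03 and 1.31 CPM in carfilzomib (-0.32 ± 0.39, adjusted p = 0.518). PANC-1 had 6, 7 and 3 counts in DMSO and 10, 9 and 6 in carfilzomib and was not tested.

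**Figure D3:**
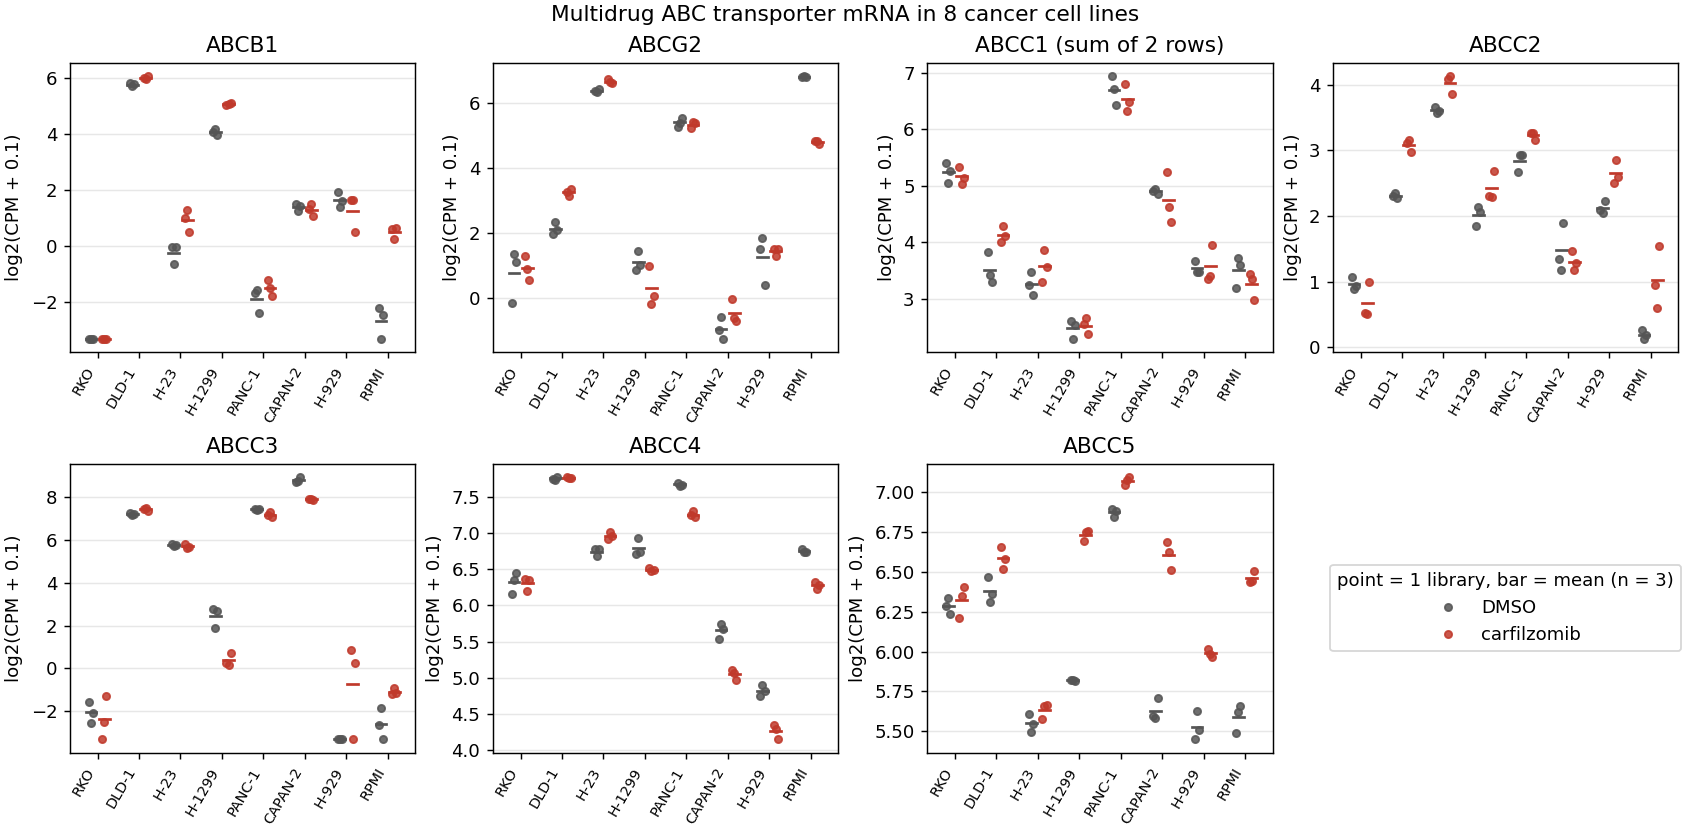
Each point is 1 library, as log2(CPM + 0.1) on the y axis (its range differs between panels), by line on the x axis. Grey is DMSO, red is carfilzomib and bars are means of the 3 points. ABCB1 lies at the floor in RKO and is apart between treatments in RPMI and H-1299, and ABCG2 in RPMI drops from about 111 to about 28 CPM.

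ABCG2 (ENSG00000118777, chr4:88090264-88231322, minus strand) moved in opposite directions in different lines, with its largest change in the line that had most of it. In DMSO it stood at 124 ± 1.37 CPM in RPMI, 74.1 ± 2.84 in H-23 and 40.3 ± 3.93 in PANC-1. The others were lower, at 4.10 ± 0.560 in DLD-1, 2.74 ± 1.28 in H-929, 2.22 ± 0.483 in H-1299, 1.58 ± 0.773 in RKO and 0.457 ± 0.132 in CAPAN-2, 272-fold below RPMI. H-929 was not called different from H-1299 (adjusted p = 0.168), nor was H-1299 from RKO (adjusted p = 0.174). All other neighbours differed, as did 26 of the 28 pairs.

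In RPMI, ABCG2 fell from 111, 112 and 109.5 CPM in the DMSO libraries to 28.2, 28.3 and 26.3 CPM. Replicates were close and the groups far apart, with a log2 fold change of -2.01 ± 0.056 (adjusted p = 9.7e-12). In the other line with high ABCG2, H-23, the level rose from 81.7, 81.0 and 85.5 CPM to 105, 98.4 and 97.6 CPM. All carfilzomib libraries were above all DMSO libraries, and the change was 0.28 ± 0.043 (adjusted p = 2.0e-04). The single fit of all libraries did not call it (0.26, adjusted p = 0.154).

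ABCG2 also rose in DLD-1, where DMSO gave 3.78, 4.97 and 4.17 CPM and carfilzomib 9.57, 8.68 and 10.1 CPM. Here the groups were apart and the change was 1.14 ± 0.13 (adjusted p = 2.0e-04). In H-1299, 1.73, 2.62 and 1.92 CPM stood against 1.89, 0.791 and 0.957 CPM, a difference of -0.79 ± 0.32 that passed narrowly (adjusted p = 0.0489) although the groups overlapped. That call was lost without DMSO replicate 2 (-0.60), DMSO replicate 3 (-0.84), carfilzomib replicate 2 (-0.55) or carfilzomib replicate 3 (-0.67), where the adjusted p ran from 0.0678 to 0.185. The difference was -1.26 without carfilzomib replicate 1. It was also not called with the size factors of DESeq2 (adjusted p = 0.0521) or by its Wald test (adjusted p = 0.0573).

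PANC-1, with 38.3, 41.8 and 46.3 CPM of ABCG2 in DMSO and 37.3, 42.2 and 41.1 CPM in carfilzomib, showed overlapping groups (-0.07 ± 0.068, adjusted p = 0.459). The other lines were under 4 CPM in every library and their groups overlapped. Their log2 fold changes were 0.03 ± 0.41 in RKO, 0.63 ± 0.38 in CAPAN-2 and 0.07 ± 0.41 in H-929.

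ABCC2 (ENSG00000023839, chr10:99782640-99852594, plus strand), which sends conjugates into bile and the gut lumen from the apical membrane, was low in all lines and rose in 5 of 8. Its DMSO level was 10.8 ± 0.347 CPM in H-23, 6.77 ± 0.683 in PANC-1, 4.69 ± 0.284 in H-929, 4.62 ± 0.155 in DLD-1, 4.22 ± 0.430 in H-1299, 2.91 ± 0.823 in CAPAN-2, 1.65 ± 0.112 in RKO and 1.17 ± 0.0587 in RPMI. H-929 and DLD-1 were not called different (adjusted p = 0.943), nor were DLD-1 and H-1299 (adjusted p = 0.499), and 25 of the 28 pairs were.

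In DLD-1, ABCC2 went from 4.82, 5.0 and 4.75 CPM to 8.58, 8.78 and 7.78 CPM. The groups were well apart, with a rise of 0.79 ± 0.11 (adjusted p = 6.4e-04). H-23 had 12.5, 11.8 and 12 CPM in DMSO and 16.9, 17.4 and 14.5 CPM in carfilzomib, a rise of 0.42 ± 0.088 (adjusted p = 0.0020). PANC-1 had 6.25, 7.49 and 7.47 CPM against 9.46, 9.52 and 8.85 CPM, a rise of 0.39 ± 0.10 (adjusted p = 0.0092). In all of these lines every carfilzomib library was above every DMSO library. The single fit of all libraries did not call ABCC2 in H-23 (adjusted p = 0.0958) or PANC-1 (adjusted p = 0.127).

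The calls of ABCC2 in H-1299 and RPMI rested on fewer counts. H-1299 had 3.51, 4.32 and 4.08 CPM against 4.82, 4.80 and 6.35 CPM, without overlap (0.42 ± 0.16, adjusted p = 0.0357). The call was lost without DMSO replicate 1 (0.34), DMSO replicate 3 (0.45) or carfilzomib replicate 3 (0.28), with library totals as the scale (0.31, adjusted p = 0.104), in the single fit (0.35, adjusted p = 0.0995) and without the filter (adjusted p = 0.0522). RPMI had 1.10, 0.992 and 1.03 CPM against 1.82, 1.41 and 2.81 CPM, also without overlap (0.95 ± 0.32, adjusted p = 0.0179). That call was lost without DMSO replicate 2 (0.91), DMSO replicate 3 (0.94) or carfilzomib replicate 3 (0.63, the highest library). In H-929, 4.17, 4.01 and 4.56 CPM stood below 5.56, 7.13 and 5.91 CPM without overlap, and the difference was not called (0.55 ± 0.27, adjusted p = 0.104). ABCC2 overlapped between treatments in RKO (-0.28 ± 0.32) and CAPAN-2 (-0.21 ± 0.22), the lines in which its estimate was below 0.

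ABCC3 (ENSG00000108846, chr17:50634777-50692252, plus strand), which exports glucuronides through the basolateral membrane, was abundant or nearly absent depending on the line. CAPAN-2 had 479 ± 43 CPM in DMSO, PANC-1 166 ± 4.98, DLD-1 143 ± 5.96, H-23 48.6 ± 2.14 and H-1299 5.90 ± 1.83. RKO had 0.133 ± 0.0741 CPM, RPMI 0.0875 ± 0.101 and H-929 no count in DMSO. PANC-1 and DLD-1 were not called different (adjusted p = 0.0588), nor were RKO and RPMI (adjusted p = 0.665) or RPMI and H-929 (adjusted p = 0.170), and 24 of the 28 pairs differed.

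ABCC3 fell in 3 of the 5 lines tested and rose in DLD-1. In CAPAN-2, 425, 433 and 496 CPM in DMSO became 238, 241 and 235 CPM. The groups were far apart, and the log2 fold change was -0.92 ± 0.063 (adjusted p = 2.0e-08). In H-1299, 6.65, 3.58 and 6.4 CPM became 1.09, 1.03 and 1.57 CPM, again without overlap (-2.20 ± 0.26, adjusted p = 9.7e-06). PANC-1 fell less, from 177, 168 and 175 CPM to 143, 157 and 135 CPM (-0.26 ± 0.049, adjusted p = 0.0011), and this was not called in the single fit of all libraries (adjusted p = 0.0649).

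DLD-1 went the other way, with ABCC3 at 154, 144 and 151 CPM in DMSO and 177, 182 and 164 CPM in carfilzomib. All treated libraries were above the controls, and the rise was 0.22 ± 0.050 (adjusted p = 0.010), which the single fit did not call (0.21, adjusted p = 0.182). In H-23 the groups overlapped, at 56.3, 52.0 and 54.5 CPM against 56.4, 48.6 and 50.8 CPM (-0.07 ± 0.055, adjusted p = 0.350). H-929 had no ABCC3 count in DMSO and 17, 0 and 10 counts in carfilzomib, so 1 treated library also had none. Its summed level was 16.1-fold that of the 3 counts over the group that a total of 0 allows, without a test. That ratio takes the 27 treated counts as exact, so it is not a lower bound. RPMI had 1, 5 and 0 counts in DMSO and 6, 9 and 8 in carfilzomib. RKO had 3, 1 and 3 counts in DMSO and 0, 1 and 5 in carfilzomib, a ratio of 0.915 (exact 95% interval 0.254 to 3.18, counting error only).

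ABCC4 (ENSG00000125257, chr13:95019829-95301475, minus strand), an exporter of cyclic nucleotides, prostaglandins and nucleoside analogues, was present in all lines and fell in 5 of 8. Its DMSO level was 205 ± 2.61 CPM in DLD-1, 195 ± 3.18 in PANC-1, 121 ± 1.49 in RPMI, 118 ± 9.59 in H-1299, 96.0 ± 4.39 in H-23, 71.2 ± 7.83 in RKO, 53.4 ± 4.04 in CAPAN-2 and 31.1 ± 1.87 in H-929. DLD-1 and PANC-1 were not called different (adjusted p = 0.297), nor were RPMI and H-1299 (adjusted p = 0.697), and 26 of the 28 pairs were.

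In CAPAN-2, ABCC4 fell from 46.4, 53.5 and 51.1 CPM to 34.5, 33.3 and 31.1 CPM (-0.61 ± 0.068, adjusted p = 3.2e-06). In PANC-1, it fell from 207, 201 and 203 CPM to 151, 158 and 149 CPM (-0.42 ± 0.034, adjusted p = 1.1e-06). In both pancreatic lines every treated library was below every control. H-1299 gave 105, 122 and 107 CPM against 91.2, 88.8 and 89.5 CPM, a smaller fall (-0.31 ± 0.058, adjusted p = 4.6e-04).

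Both myeloma lines lost ABCC4 transcript. RPMI had 110.0, 107 and 107 CPM in DMSO and 80.3, 74.5 and 77.6 CPM in carfilzomib (-0.48 ± 0.052, adjusted p = 2.6e-06). H-929 had 26.8, 29.8 and 28 CPM against 20.2, 19.6 and 17.6 CPM (-0.56 ± 0.13, adjusted p = 0.0019). The groups did not overlap in either line. H-23 was the exception, with a rise from 109.7, 102 and 109 CPM to 120.5, 129 and 125 CPM, also without overlap (0.22 ± 0.042, adjusted p = 0.0011). In RKO, 71.5, 81.9 and 86.9 CPM overlapped with 82.2, 73.0 and 81.8 CPM (-0.02 ± 0.075), and in DLD-1, 215, 213 and 219 CPM overlapped with 219, 217 and 216 CPM (0.01 ± 0.039).

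ABCC5 (ENSG00000114770, chr3:183919934-184018015, minus strand), an exporter of cyclic nucleotides and nucleotide analogues, had the most even level of these genes and rose in 6 of 8 lines. In DMSO it stood at 112 ± 2.20 CPM in PANC-1, 79.2 ± 5.40 in DLD-1, 69.1 ± 1.84 in RKO, 59.9 ± 0.204 in H-1299, 54.0 ± 3.85 in RPMI, 52.5 ± 2.65 in CAPAN-2, 51.0 ± 3.56 in H-929 and 41.9 ± 1.78 in H-23. PANC-1 was 2.67-fold above H-23. RPMI and CAPAN-2 were not called different (adjusted p = 0.517), nor were CAPAN-2 and H-929 (adjusted p = 0.555), and 25 of the 28 pairs were.

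The rise of ABCC5 was near 2-fold in 3 lines of different origin. In CAPAN-2, 48.3, 47.9 and 52.2 CPM became 103, 98.3 and 90.9 CPM (0.98 ± 0.063, adjusted p = 1.2e-08). In H-1299, 56.4, 56.4 and 56.3 CPM became 103, 108 and 108 CPM (0.91 ± 0.044, adjusted p = 3.1e-09). In RPMI, 44.8, 49.1 and 50.4 CPM became 86.3, 86.6 and 90.5 CPM (0.86 ± 0.059, adjusted p = 2.3e-08). The treated libraries of all 3 lines stood well above their controls.

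Smaller rises of ABCC5 were called elsewhere. H-929 went from 43.6, 49.4 and 45.5 CPM to 64.6, 63.3 and 62.3 CPM (0.46 ± 0.096, adjusted p = 0.0011), and the single fit of all libraries gave 0.29, also called. PANC-1 went from 119, 115 and 117 CPM to 132, 135 and 136 CPM (0.20 ± 0.034, adjusted p = 4.2e-04). DLD-1 went from 88.3, 79.1 and 82.1 CPM to 101, 91.3 and 95.5 CPM, barely without overlap (0.20 ± 0.056, adjusted p = 0.0252). The DLD-1 call was lost without DMSO replicate 2 (0.17), carfilzomib replicate 1 (0.17) or carfilzomib replicate 3 (0.20), where the adjusted p ran from 0.0808 to 0.114. RKO, with 77.9, 80.7 and 75.1 CPM against 74.0, 81.2 and 84.6 CPM (0.04 ± 0.062), and H-23, with 48.8, 45 and 46.5 CPM against 47.7, 50.4 and 50.7 CPM (0.09 ± 0.048), showed overlapping groups.

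ABCC1 (chr16:15949577-16143074, plus strand, as GENCODE gives it), which exports glutathione conjugates and many drugs, was called in a single line. Its 2 rows in the matrix carry the identifier ENSG00000278183 in place of GENCODE's ENSG00000103222, so its level is uncertain. The summed DMSO level was 100.2 ± 17.3 CPM in PANC-1, 33.7 ± 4.01 in RKO, 31.6 ± 0.900 in CAPAN-2, 12.7 ± 1.02 in H-929, 12.7 ± 2.40 in RPMI, 10.9 ± 2.41 in DLD-1, 8.51 ± 1.16 in H-23 and 5.82 ± 0.684 in H-1299. RKO and CAPAN-2 were not called different (adjusted p = 0.563), nor were H-929 and RPMI (adjusted p = 0.942) or RPMI and DLD-1 (adjusted p = 0.184), and 24 of the 28 pairs were.

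In DLD-1, ABCC1 rose from 14.1, 10.6 and 9.72 CPM to 15.9, 19.5 and 17.3 CPM. The groups did not overlap, and the change was 0.61 ± 0.14 (adjusted p = 0.0095). It was called from either row alone (0.53 and 0.75), but not without carfilzomib replicate 2, the highest library (0.52, adjusted p = 0.0524). In H-23, 9.35, 11 and 8.22 CPM overlapped with 9.67, 14.4 and 11.7 CPM (0.35 ± 0.14, adjusted p = 0.0721). That difference became a call without DMSO replicate 2 (0.45) or carfilzomib replicate 1 (0.46), and without the filter (adjusted p = 0.0446).

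In the other 6 lines the groups of ABCC1 overlapped. The log2 fold changes were -0.07 ± 0.10 in RKO, 0.05 ± 0.14 in H-1299, -0.15 ± 0.12 in PANC-1, -0.10 ± 0.15 in CAPAN-2, 0.06 ± 0.20 in H-929 and -0.26 ± 0.16 in RPMI. Carfilzomib replicate 1 of CAPAN-2, at 37.9 CPM, was apart from the others, at 24.6 and 20.4 CPM, and without it a fall of 0.40 on the log2 scale was called (adjusted p = 0.0026). DMSO replicate 1 of RPMI, at 9.01 CPM, stood below 13 and 12 CPM, and without it a fall of 0.40 on the log2 scale was called (adjusted p = 0.0355).

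Averaged over lines in a joint fit of all 48 libraries, the members went in different directions. The average could be used for the 5 members with counts in every group, of which 3 were called, 2 higher and 1 lower. Of 15345 genes with a single row and counts in every group, 59.5% were called, 26.1% higher and 33.4% lower. ABCC5 rose on average by 0.43 ± 0.021 (adjusted p = 2.1e-22) and ABCC2 by 0.34 ± 0.067 (adjusted p = 3.5e-05), and ABCC4 fell by 0.31 ± 0.023 on the log2 scale (adjusted p = 4.4e-16). The average of ABCG2 was -0.13 ± 0.085 (adjusted p = 0.230) and depends on single lines. It was 0.15 without RPMI, and it was called lower without DLD-1 (-0.31) or CAPAN-2 (-0.25) and without replicate 1 of every group (-0.33). Without replicate 2 of every group it was 0.052, and without H-1299 -0.029. ABCC1 averaged 0.02 ± 0.065 (adjusted p = 1.00), and -0.066 without DLD-1 or -0.031 without H-23. Over the lines where they were tested, ABCB1 averaged 1.01 ± 0.11 in 6 lines (adjusted p = 1.7e-10) and ABCC3 -0.67 ± 0.061 in 5 lines (adjusted p = 1.2e-12). The ABCB1 average includes RPMI (4.33 within the line), which passed the filter through its carfilzomib libraries only, and leaves out RKO and PANC-1. Within the other tested lines, ABCB1 ran from -0.32 in H-929 to 1.26 in H-23, so its average leans on RPMI. The SE of an average covers the spread between replicates and not that between lines.

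The response differed between lines for all 7 members by the joint test of the 7 differences, where 67.7% of 22308 genes did. The F values were 44.7 for ABCC5, 44.6 for ABCG2, 25.9 for ABCC4, 25.1 for ABCC3, 15.4 for ABCB1, 4.10 for ABCC2 and 2.83 for ABCC1. Between tested lines alone, F was 21.5 for ABCB1 and 35.8 for ABCC3. Both F values of ABCB1 include RPMI, which passed the filter on low counts through its carfilzomib libraries only. The call of ABCC2 was lost without replicate 1 (F = 2.54, adjusted p = 0.0622), and that of ABCC1 without replicate 2 (F = 1.11) or replicate 3 (F = 1.78). ABCC1 had F = 8.26 without replicate 1. The others stayed called, at F = 8.70 for ABCB1 without replicate 1, 29.6 for ABCG2 without replicate 3 and 23.5 for ABCC5 without replicate 2. ABCC3 had F = 13.6, 39.1 and 16.1 without replicate 1, 2 or 3, and ABCC4 had 14.8 and 15.6 without replicate 2 or 3.

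In the myeloma lines, in which carfilzomib is used clinically, the response of 4 of the 5 usable members differed from that in the other 6 lines. Of all 22308 genes in the joint fit, 44.3% did. Unlike the usable members, those genes include some without counts in every group, so the shares are not fully matched. Among the 4 members, 2 stood higher and 2 lower, against 19.1% and 25.2% of the 22308 genes. The response of ABCG2 was lower there (difference of log2 fold changes -1.30 ± 0.19, adjusted p = 8.9e-08), at -2.28 with RPMI alone and -0.32 with H-929 alone (adjusted p = 0.491). ABCC4 also stood lower (-0.44 ± 0.059, adjusted p = 2.1e-08), and this held for each myeloma line alone (-0.35 with RPMI). Its fall was not particular to myeloma. Within the line, H-929 (-0.56) and RPMI (-0.48) lay inside the range of the other 6, from -0.61 in CAPAN-2 to 0.22 in H-23. As for the averages, the SE of these contrasts covers the spread between replicates and not that between lines. ABCC5 stood higher (0.15 ± 0.050, adjusted p = 0.0113), but not without replicate 1 (0.078) and not for H-929 alone (-0.095). In the fits within lines, ABCC5 was 0.46 in H-929 against a mean of 0.40 in the other 6. The sign for H-929 alone thus differs between the joint and within-line fits. ABCC2 passed narrowly (0.39 ± 0.16, adjusted p = 0.0477) and was lost with H-929 alone (0.14), without the filter (0.38) and without replicate 1 (0.49), 2 (0.40) or 3 (0.24). ABCC1 was not called (-0.33 ± 0.16, adjusted p = 0.101), but was without replicate 1 (-0.38). Scaling all 48 libraries together moved every log2 fold change of H-929 by -0.16 and of RPMI by -0.08 against the fit within the line.

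Across the 8 lines, the log2 fold changes of ABCC4 and ABCC5 ran in opposite order (Pearson r = -0.71). Those of ABCC1 ran in a like order to ABCC4 (r = 0.68) and to ABCG2 (r = 0.66). The pairs named are the strongest among the members tested in all lines. These are descriptions over 8 lines whose values come from the same libraries and scale. Between the log2 DMSO level of ABCB1 and the percent of genes called in a line, r was 0.17 and Spearman's rho 0.12 over the 8 lines.

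Other genes were listed by how alike their 8 line values were. For the response, ABCF3, a gene of the ABC family without membrane spans that lies 168 kb from ABCC5, was most like ABCC5 (r = 0.996), followed by DDA1 (r = 0.983). ABCF3 was called higher in 5 lines. The responses most like that of ABCG2 were of TBKBP1 (r = 0.981) and AGPAT2 (r = 0.974), and those most like that of ABCC4 were of LPCAT3 (r = 0.931) and ARSB (r = 0.930). C11orf80 and TBC1D7 were most like ABCC2 (r = 0.925 for each), and ASB14 (r = 0.915) and MYADM (r = 0.856) most like ABCC1. These were taken from 11373 genes tested in all lines, so high values arise among many candidates.

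For the DMSO level, over 21076 genes, KRT18, a keratin of simple epithelia, was most like ABCC3 (r = 0.986), followed by GATA2-AS1 (r = 0.985). SALL4 (r = 0.981) and BSN (r = 0.974) were most like ABCC2, and ZYG11B (r = 0.982) and INTS2 (r = 0.974) most like ABCC4. NUPR1 (r = 0.967) and RRAGC (r = 0.930) were most like ABCC5, CXCL6 and PMS1 (r = 0.955 for each) most like ABCG2, MKX (r = 0.928) and HS3ST5 (r = 0.908) most like ABCB1, and RPL35AP2 (r = 0.949) and CLCN7 (r = 0.938) most like ABCC1.

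Genes that overlap a member were looked at because the use of strand in counting is not given in the sources used here. RUNDC3B, which overlaps ABCB1 on the other strand, was called in none of the 7 lines where it was tested, with log2 fold changes from -0.42 in DLD-1 to 0.62 in H-929. In H-1299, where ABCB1 rose, RUNDC3B stood at -0.33 ± 0.16 (adjusted p = 0.0951), and in RPMI at -0.10 ± 0.33. ABCC5-AS1, antisense to ABCC5, had at most 44 counts in a library. It was called higher in PANC-1 (0.66 ± 0.24, adjusted p = 0.0430) and H-929 (3.01 ± 0.74, adjusted p = 0.0033).

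Related gene groups were described by their averages over the 8 lines, beside all 15345 genes, of which 26.1% were called higher and 33.4% lower, with a median of -0.015. Among 25 other ABC transporters, 10 were called higher and 5 lower, with a median of 0.15. ABCB6, a porphyrin transporter, averaged 0.79 ± 0.037 and was called higher in 6 lines, and ABCB8, of the mitochondrial inner membrane, averaged 0.52 ± 0.026 and was higher in 7. ABCA7, a lipid transporter, averaged 0.47 ± 0.033. ABCB10, also mitochondrial, fell by 0.52 ± 0.023 and was called lower in 7 lines, and ABCA3, the surfactant lipid transporter, fell by 0.62 ± 0.043. ABCA12, the lipid transporter of skin, fell by 0.34 ± 0.10.

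The glutathione genes, listed for synthesis and conjugation, had 10 called higher and 3 lower of 16, with a median of 0.18. GCLM, the modifier subunit of the enzyme that limits glutathione synthesis, rose by 1.12 ± 0.036 on average. It was higher in 7 lines, and RKO had its lowest value, 0.076. GSR, glutathione reductase, averaged 0.71 ± 0.027 and was also higher in 7 lines. GSTA4 averaged 0.61 ± 0.10 and was called higher in 1 line, DLD-1 having its highest value. GSTK1 (-0.19), GSS, glutathione synthetase (-0.16), and GSTZ1 (-0.13) were lower on average.

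Of 7 drug uptake carriers, 5 fell and 2 were not called, with a median of -0.30. SLC19A1, the reduced folate carrier, fell by 0.62 ± 0.038, most in H-929 (-1.32), and SLC29A1, an equilibrative nucleoside transporter, fell by 0.57 ± 0.024, most in CAPAN-2 (-1.31). SLC31A1, the copper importer, fell by 0.33 ± 0.026, with its lowest value in H-929 (-1.56). By line, where carriers without counts in every group also entered, 8 of 10 tested carriers were called lower in RPMI and 0 higher, and 5 of 9 lower and 0 higher in H-929. CAPAN-2 had 7 of 12 lower and 2 higher, PANC-1 4 of 10 lower and 2 higher, and H-1299 3 of 9 lower and 1 higher. H-23 had 3 of 9 lower and 2 higher, RKO 1 of 8 each way, and DLD-1 0 of 12 lower and 3 higher. Of all genes, 32.2% were called lower in RPMI, 26.2% in H-929, 26.8% in CAPAN-2, 18.2% in PANC-1, 31.3% in H-1299, 16.2% in H-23, 5.29% in RKO and 12.1% in DLD-1, where 10.9% were called higher.

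**Figure D4:**
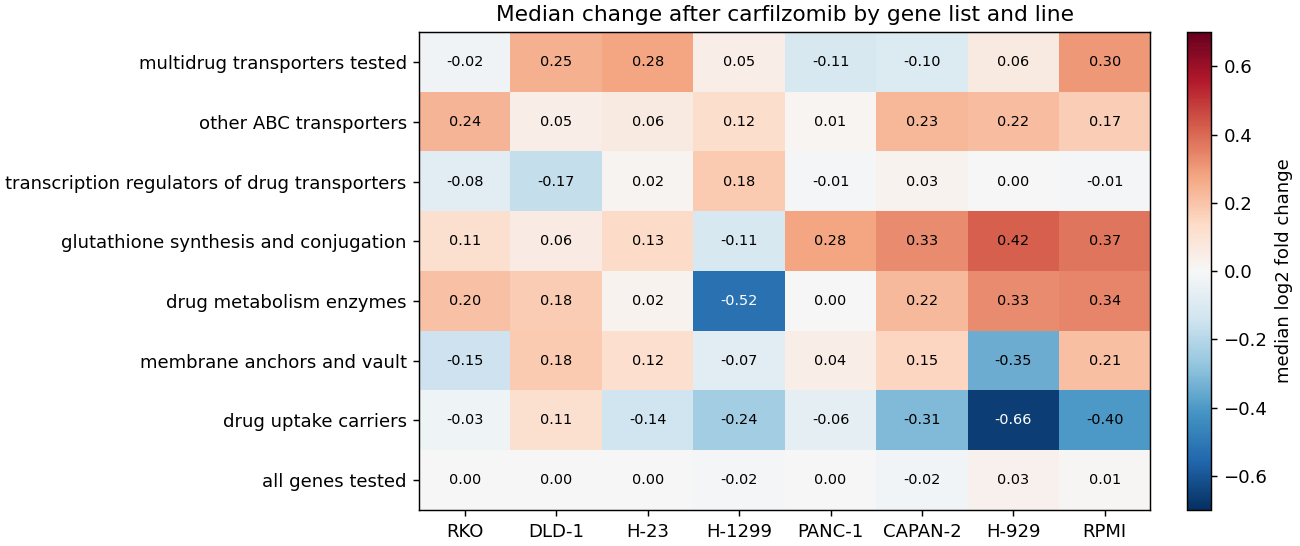
Median log2 fold change after carfilzomib of the tested genes of each list (y axis) in each line (x axis), with the value in each cell and red for above 0 and blue for below 0. The uptake carriers are lowest in H-929 (-0.66), the glutathione genes highest there (0.42), and the median of all genes is within 0.03 of 0 in every line.

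Among 22 transcription regulators linked to transporter genes, 6 were called higher and 12 lower, with a median of -0.071. ESR1, the oestrogen receptor, averaged 0.90 ± 0.21, EPAS1, a hypoxia factor, 0.73 ± 0.045 with 3.83 in H-929, and EGR1 0.66 ± 0.062. NFYB, a subunit of the factor that binds CCAAT, fell by 0.40 ± 0.026, and SP1, which binds GC boxes, fell by 0.29 ± 0.018 and was called lower in 7 lines.

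Of 7 drug metabolism enzymes, 2 were called higher and 1 lower, with a median of 0.037, so the share called higher lay near that of all genes. SULT1A1, a sulphotransferase, averaged 1.16 ± 0.087, NQO1, a quinone reductase, 0.31 ± 0.029, and EPHX1, an epoxide hydrolase, -0.14 ± 0.029. Of 7 genes for membrane anchors and the vault, 2 were called higher and 2 lower, with a median of -0.0097. MSN (moesin) averaged 0.43 ± 0.058, with 1.72 in CAPAN-2 and -0.53 in H-929. MVP, the major vault protein, averaged 0.082 ± 0.029, with 0.93 in DLD-1 and -1.23 in H-1299. SLC9A3R2 averaged -0.37 ± 0.038 and SLC9A3R1 -0.063 ± 0.025. The averages of these lists hold only genes with 1 row and counts in every group, while the counts and medians by line hold the genes tested in that line.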

How the data were processed

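The authors deposited 1 matrix of raw read counts per gene for 48 libraries, made from TruSeq stranded total RNA libraries per the labels' protocols. The submitters' processing notes name bcl2fastq 2.19, FastQC, Trimmomatic, HISAT2, DESeq2 and hg38. The counting program, its annotation and its use of strand are not given in the sources used here. Totals were 9.12 to 64.4 M (mega) counts. Genes were tested on the whole table with edgeR 4.0.16 in R 4.3.3 (TMM, filterByExpr, quasi-likelihood F test, Benjamini-Hochberg adjusted p under 0.05), per line on 6 libraries, jointly on 48 libraries with 16 groups, and between lines on the DMSO libraries. The 2 ABCC1 rows were summed. ABCB1 and ABCC3 have no count in some group, so their averages are over tested lines only. Gene positions and exon lengths are from GENCODE release 29, and promoters from RefSeq (GRCh38.p14).

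The named genes are all members, at most 3 genes per list and direction with the largest average change among those called, the 2 genes per member most alike in DMSO level and in response, and overlapping genes. Of the genes this rule names, 1 is not reported here. The members and lists were chosen with earlier results of these data known. Alternatives were the size factors and the Wald test of DESeq2 1.42.0, library totals, no filter, a single fit, a replicate block, left-out libraries, lines and replicates, and, added after seeing the data, single ABCC1 rows and averages over tested lines. The test was also checked on simulated counts.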

Additional observations from a re-analysis of the deposited data

Results flagged for a closer look

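The response to carfilzomib differed between the 8 lines for all 7 members by the joint quasi-likelihood test of edgeR (7 differences between lines, adjusted over all genes). By this test 67.7% of all genes differed, so a difference is the common case. ABCC5 had F = 44.7 (adjusted p = 1.2e-16), ABCG2 F = 44.6 (1.2e-16), ABCC4 F = 25.9 (9.2e-13) and ABCC3 F = 25.1 (3.0e-12). ABCB1 had F = 15.4 (adjusted p = 5.8e-09), ABCC2 F = 4.10 (0.0028) and ABCC1 F = 2.83 (0.0251). The F of ABCB1 draws on RPMI, which passed the filter on low counts through its carfilzomib libraries only. It also draws on RKO and PANC-1, where ABCB1 was not tested, so it is weak ground for a difference. The F of ABCC3 likewise draws on RKO, H-929 and RPMI, where ABCC3 was not tested. ABCG2, ABCC3 and ABCC4 had calls in both directions: ABCG2 fell in RPMI and H-1299 and rose in DLD-1 and H-23, ABCC4 fell in 5 lines and rose in H-23, and ABCC3 fell in H-1299, CAPAN-2 and PANC-1 and rose in DLD-1. The result for ABCC1 was not called without replicate 2 or 3 of every group, and that for ABCC2 was not called without replicate 1.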

How the results depend on the processing

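Counts of members called stayed within 1.5 times their value under the alternatives, except that a single fit of all 48 libraries called 2 members in H-23 and 2 in PANC-1, against 4 in each as reported, and the myeloma contrast called 1 member with H-929 alone, against 4 as reported. The other alternatives called 4 or 5 in H-23, 4 in PANC-1 and 3 or 4 in the myeloma contrast. The share of all genes called was counted for the reported fits only, at 33.9% in H-23, 38.7% in PANC-1 and 44.3% in the myeloma contrast. Member counts under the alternatives therefore have no share of all genes beside them. The single fit lost the calls of ABCB1 (0.24) and ABCC3 (0.21) in DLD-1, ABCC2 (0.40) and ABCG2 (0.26) in H-23, ABCC2 (0.38) and ABCC3 (-0.26) in PANC-1 and ABCC2 in H-1299 (0.35). That fit moved the median of all genes by -0.16 in H-929 and by -0.079 in RPMI. The cause of the lost calls was not tested. Signs turned for values that were not called, and for ABCC5 in the myeloma contrast (-0.095 with H-929 alone). With library totals, ABCC4 in RKO was 0.020 and ABCC1 in H-1299 -0.062. With no filter, ABCG2 in H-929 was -0.011 and ABCC1 -0.024. In the single fit, ABCG2 was -0.0044 in RKO and -0.13 in H-929, and ABCC1 was -0.021 in H-1299 and -0.11 in H-929. The row ABCC1-2 alone gave -0.26 in H-929. The average of ABCC1 was -0.066 without DLD-1 and -0.031 without H-23, and that of ABCG2 was 0.15 without RPMI.

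Leaving out 1 library at a time turned the sign of these uncalled log2 fold changes, given as lowest and highest. In RKO, ABCG2 ran from -0.29 to 0.31, ABCC1 from -0.16 to 0.010, ABCC4 from -0.095 to 0.042 and ABCC5 from -0.0048 to 0.093. In H-1299, ABCC1 ran from -0.040 to 0.12, and in PANC-1, ABCG2 from -0.13 to 0.0035. In CAPAN-2, ABCB1 ran from -0.21 to 0.0096, ABCC1 from -0.40 to 0.074 and ABCC2 from -0.34 to 0.047. In H-929, ABCG2 ran from -0.27 to 0.37 and ABCC1 from -0.19 to 0.14. Without a replicate number, the average of ABCG2 ran from -0.33 to 0.052.

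The replicate numbers did not clearly pair the samples over all lines. Deviations of same-numbered samples correlated at -0.063 to 0.049, and 24 of 48 samples correlated best with their own number among 3 candidates. They included all 6 in H-23 and all 6 in PANC-1 but 0 of 6 in CAPAN-2, a hint from the data and not the design. With the replicate number as a block, 5 members were called in H-23 (ABCC1 added, 0.33) and 3 in the myeloma contrast (ABCC2 lost, 0.38), and no other call changed. Depth limits ABCB1, ABCC2, ABCC3 and ABCG2 in lines with few counts, since 3 counts equal 0.0444 CPM in the deepest library and 0.324 CPM in the shallowest.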
